A study of Mus musculus with 3 samples.

Results

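The genes described here encode enzymes that attach ubiquitin to proteins and remove it, read on 3 arrays of a malignant mouse B-1 cell line. They were chosen by symbol: probe sets with 1 annotated symbol beginning Ube1, Ube2, Ube3, Ube4, or beginning Uba, Usp, Uchl, Fbxo, Fbxw, Fbxl or Cul with a digit next, leaving out Ube2c and Usp18. This gave 97 probe sets of 74 genes, of the 12588 probe sets on the array that are not controls. No measured value entered this rule, but it was set with earlier results of these data known.

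The cells are LNC, a line grown out of lymph node cells of a mouse of the New Zealand Black (NZB) strain aged 1 year. LNC cells given an IL-10 antisense oligonucleotide at 20 µM, LNC cells given a scrambled oligonucleotide at 20 µM to control for effects of any oligonucleotide, and untreated LNC cells were each read on 1 Affymetrix array, with RNA taken at 24 h. All are the same line, so the values describe 1 tumour. The sources used here do not say whether an array held RNA of 1 culture or of several.

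Ubiquitin is a small protein that is joined to other proteins in a chain of steps. An E1 enzyme activates it, an E2 enzyme carries it, and an E3 ligase chooses the target. In the largest family of ligases a cullin is the scaffold, and in those built on Cul1 an F-box protein holds the target. Deubiquitinases cut ubiquitin off again, most of them of the USP family and a few of the UCH family. Chains of ubiquitin mark proteins for the proteasome or act as signals, and both uses act in the control of NF-kB and of the cell cycle in B cells.

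Il10, the targeted gene, read 13946 on the array labelled antisense, 5616 with the scrambled oligonucleotide and 5164 in untreated cells. The targeted RNA was thus higher where the label would have it lowered or blocked, so that array is called antisense-labelled below. Of the 7 B cell markers on the array, Cd79a, Cd79b, Ms4a1, Pax5 and Cd74 were above the noise floor on the 3 arrays, and Cd5, which marks B-1 cells, and Cd22 were below it. Their summed intensity was 125774 on the antisense-labelled array, 178638 with the scrambled oligonucleotide and 163686 in untreated cells. Among 5 T cell markers 1 was above the floor on each array, and Cd3e, Cd3d, Cd3g and Cd8a were below it. Their sum was 1487, 2684 and 1349 on the antisense-labelled, scrambled and untreated arrays, nearly all of it Cd4. Of 5 myeloid markers 2, 1 and 2 were above the floor, with sums of 1776, 2361 and 3338 and Itgam and Lyz2 below it throughout, and of 4 stromal markers 2, 1 and 1, with sums of 1434, 1085 and 1212 and Col1a2 and Col3a1 below it. Hba-a1, a red cell gene, read 2233, 560 and 1628 in that order. The signal of the 3-prime over that of the 5-prime probe set for 18S ribosomal RNA was 8.13, 4.48 and 1.72 on the antisense-labelled, scrambled and untreated arrays. The part of that ratio and of these markers in the differences below was not tested. Fewer cells of a type and less RNA per cell cannot be told apart.

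The upstream sequence of a few of these genes is shown first, because most member promoters held here share features that the choice by symbol did not use. RefSeq promoters of GRCm38.p6, 250 bases before to 50 after each start, were held for 54 of the 74 genes, with 69 promoters in all. Capitals mark the GC box, the letters GGGCGG or CCGCCC, which Sp family factors are known to bind. Uchl1 is shown because it had the widest difference from untreated cells among members above the floor on the 3 arrays, Uchl5 and Ube2k because they were lower on the antisense-labelled array, and Usp4 because it was higher.
Uchl1, chr5:66675871-66676170, plus strand: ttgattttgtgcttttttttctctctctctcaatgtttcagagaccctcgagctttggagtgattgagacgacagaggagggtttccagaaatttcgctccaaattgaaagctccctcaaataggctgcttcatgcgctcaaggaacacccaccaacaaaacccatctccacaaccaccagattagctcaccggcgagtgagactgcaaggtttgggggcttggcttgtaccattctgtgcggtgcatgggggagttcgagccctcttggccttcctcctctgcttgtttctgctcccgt
Uchl5, chr1:143777028-143777327, plus strand: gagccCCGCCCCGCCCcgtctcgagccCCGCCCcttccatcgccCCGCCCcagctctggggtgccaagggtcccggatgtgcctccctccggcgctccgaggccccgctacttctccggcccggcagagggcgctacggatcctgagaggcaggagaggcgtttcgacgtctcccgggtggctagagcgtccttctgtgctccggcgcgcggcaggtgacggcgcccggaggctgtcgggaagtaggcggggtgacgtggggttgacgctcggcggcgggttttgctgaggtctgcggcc
Ube2k, chr5:65536995-65537294, plus strand: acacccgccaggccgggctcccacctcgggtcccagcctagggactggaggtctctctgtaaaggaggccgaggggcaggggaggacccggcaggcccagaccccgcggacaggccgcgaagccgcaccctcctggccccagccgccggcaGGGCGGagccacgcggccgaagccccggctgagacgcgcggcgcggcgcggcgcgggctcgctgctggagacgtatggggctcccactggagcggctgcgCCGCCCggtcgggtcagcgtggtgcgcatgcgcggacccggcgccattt
Usp4, chr9:108347581-108347880, plus strand: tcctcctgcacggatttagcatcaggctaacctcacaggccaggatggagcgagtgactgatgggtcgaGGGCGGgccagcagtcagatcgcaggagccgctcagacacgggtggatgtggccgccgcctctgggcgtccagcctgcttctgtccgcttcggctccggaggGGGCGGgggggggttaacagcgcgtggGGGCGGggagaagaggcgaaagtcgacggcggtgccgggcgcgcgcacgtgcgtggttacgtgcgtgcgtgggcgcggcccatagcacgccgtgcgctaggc

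The Uchl1 promoter differed from the other three in its letters. It holds no GC box and 9 CG pairs at 50.7% G and C, against 4 GC boxes, of which some overlap, and 36 CG pairs in Uchl5, 2 boxes and 39 pairs in Ube2k, and 3 boxes and 35 pairs in Usp4. Of the 69 member promoters, 69.6% held a GC box on either strand, against 35.7% of all 32851 promoters of that length. Their median content of G and C was 64.0%, against 52.7% for all promoters, and the median number of CG pairs was 26 against 7. The ETS letters CCGGAAG or their complement were in 21.7% of member promoters and 8.86% of all, and the cAMP response element TGACGTCA in 4.35% and 1.79%. The CCAAT box, read as CCAAT or ATTGG, was in 17.4% and 37.4%, the TATA letters TATAAA or TTTATA in 7.25% and 13.6%, and the E-box CACGTG in 5.80% and 7.15%. These are matches of letters only, and the part of the content of G and C in them was not tested. The comparison is with all promoters, not with those of genes past the filter.

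Most of the ubiquitin system differed little between the 3 arrays. A probe set was used where at least 1 of its 3 values was above a noise floor of 595.9, which kept 69 of the 97 member probe sets, of 59 genes. Of the 69, 56 were above the floor on the 3 arrays, and 13 passed through 1 or 2 arrays alone. The other 28 had no value above 515.6, and 15 genes had no probe set past the filter: Cul7, Fbxl5, Fbxl15, Fbxo15, Fbxo21, Ube2f, Ube2l6, Ube2v2, Usp12, Usp17la, Usp17lc, Usp24, Usp29, Usp33 and Usp42. Each group is a single array, so no difference has a replicate or a test behind it, and each is one of log2 intensities of these arrays. The median difference of the 69 was 0.00 for antisense-labelled minus untreated, -0.05 for antisense-labelled minus scrambled and 0.04 for scrambled minus untreated, and that of all 6127 probe sets past the filter was 0.00 in each.

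Few members were 2-fold apart. Of the 69, 1 was at least 2-fold higher on the antisense-labelled array than in untreated cells, against 2.64% of all probe sets, and 1 at least 2-fold lower, against 2.20%. Relative to the scrambled array 1 was higher, against 3.20% of all, and 2 were lower, against 2.82%. The scrambled array had 1 member at least 2-fold above the untreated array, against 1.70%, and 1 below it, against 1.40%. A value below the floor was set to it, so a member such as Fbxo9, Usp2 or Usp19 can be further apart than it is counted here. The members counted were Uchl1 and Fbxo38 against untreated, Fbxo45, Fbxo38 and Usp19 against scrambled, and Uchl1 and Fbxo8 between the controls. These shares are near those of the whole array. Differences under 1.5-fold made up 84.1% of the members for antisense-labelled minus untreated and 85.5% for antisense-labelled minus scrambled, and 82.4% and 79.9% of all probe sets. For scrambled minus untreated they made up 84.1% of the members and 87.1% of all.

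Against both controls at once, in any amount, 22 of the 69 were higher on the antisense-labelled array, or 31.9% against 37.3% of all probe sets, and 26 were lower, or 37.7% against 32.0%. A yardstick for error came from the 2 control arrays: for each probe set, the size of the scrambled minus untreated difference that 95% of its 300 neighbours in level did not exceed. Near an intensity of 1000 this is 2.28-fold, while 1.80-fold applies at 2000 and 1.32-fold at 8000. Any effect of the scrambled oligonucleotide is part of it. For scrambled minus untreated it is no separate measure, since it was made from those differences, and 4.0% of all probe sets exceeded it there. No member was higher than both controls by more than this yardstick, where 2.69% of all probe sets were. Uchl5 alone was lower than both by more than it, where 2.51% of all probe sets were.

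**Figure D1:**
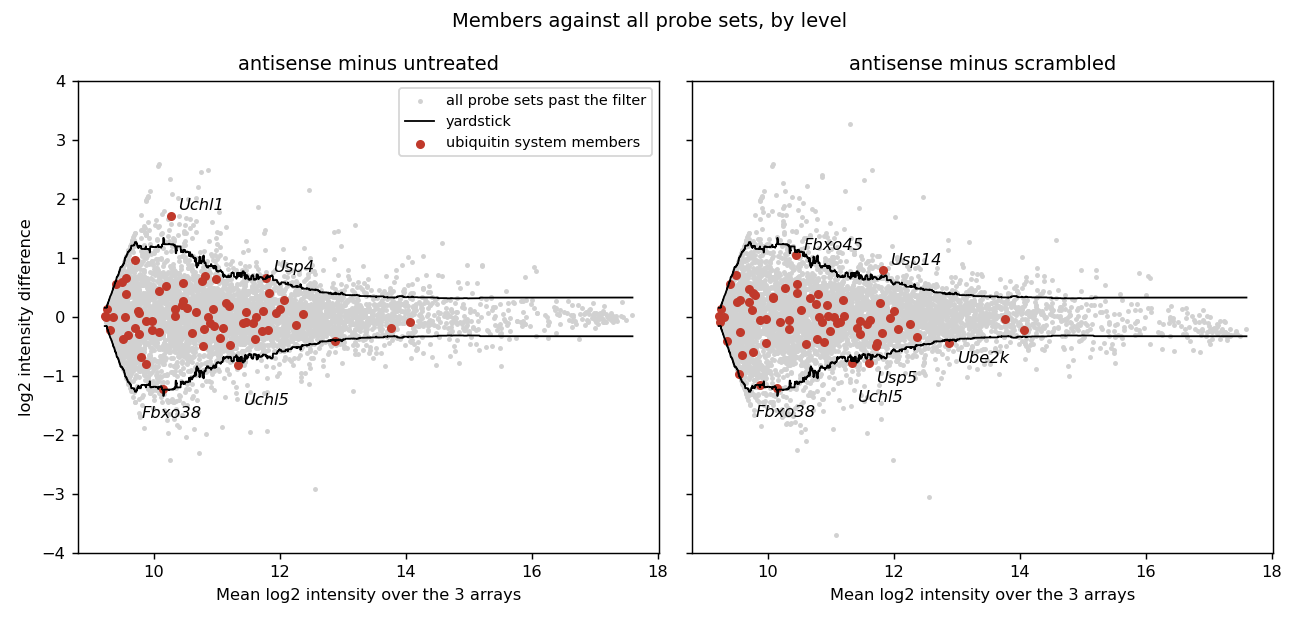
The log2 intensity difference of each probe set past the filter (vertical axis) is plotted against its mean log2 intensity over the 3 arrays (horizontal axis), for antisense-labelled minus untreated on the left and antisense-labelled minus scrambled on the right. Grey points are all 6127 probe sets, red points the 69 members, and black lines the yardstick in each direction; named are members above the floor on the 3 arrays that are past the yardstick or 2-fold apart, with Uchl5 at -0.82 and -0.77.

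All values are relative to a common level of the arrays. For 6 bacterial spike-in controls, the brightest left aside, the mean log2 difference of the antisense-labelled array was -0.63 from untreated and -0.51 from scrambled. Scaling to them would raise the median of probe sets above the floor by 0.64 and 0.51, and the members' medians to 0.57 and 0.45. On that scale 60 of the 69 members would be higher and 3 lower than both controls, in a shift that the whole array shares. The same count over all probe sets is not given here, so 60 is not read as a trait of the members. The signs below hold on the common level. A value lower on the antisense-labelled array by less than these shifts, as for most of the lower members, has the opposite sign on the spike-in scale.

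Uchl5 and Usp14 are deubiquitinases that bind the proteasome itself, and their differences had opposite signs. Uchl5, which trims ubiquitin from substrates docked at the proteasome, read 1786 on the antisense-labelled array, 3055 with the scrambled oligonucleotide and 3152 in untreated cells. Its antisense-labelled value stood apart from a close pair of controls, by -0.82 against untreated and -0.77 against scrambled, with a yardstick of 0.75. On the spike-in scale these were -0.19 and -0.26. Usp14, the USP enzyme of the proteasome, read 4795 on the antisense-labelled array, 2771 with the scrambled oligonucleotide and 3626 in untreated cells. It was higher by 0.40 than in untreated cells and by 0.79 than with the scrambled oligonucleotide, and of these only the difference of 0.79 was beyond its yardstick of 0.67. The controls of Usp14 were themselves apart by -0.39, scrambled minus untreated.

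Uchl1, a UCH enzyme abundant in neurons and known also from B cell lymphomas, was higher with either oligonucleotide. It read 2045 on the antisense-labelled array, 1463 on the scrambled array and 623 in untreated cells, the last little above the floor. The differences were 1.71 for antisense-labelled minus untreated and 1.23 for scrambled minus untreated, with a yardstick of 1.23, and 0.48 for antisense-labelled minus scrambled. Among members above the floor on the 3 arrays, Uchl1 alone was 2-fold higher than untreated cells on either oligonucleotide array. Its promoter, shown above, is the one of the 4 printed without a GC box. Other member promoters lack the box too, as 48 of the 69 held one, and a link between the box and the differences was not tested.

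**Figure D2:**
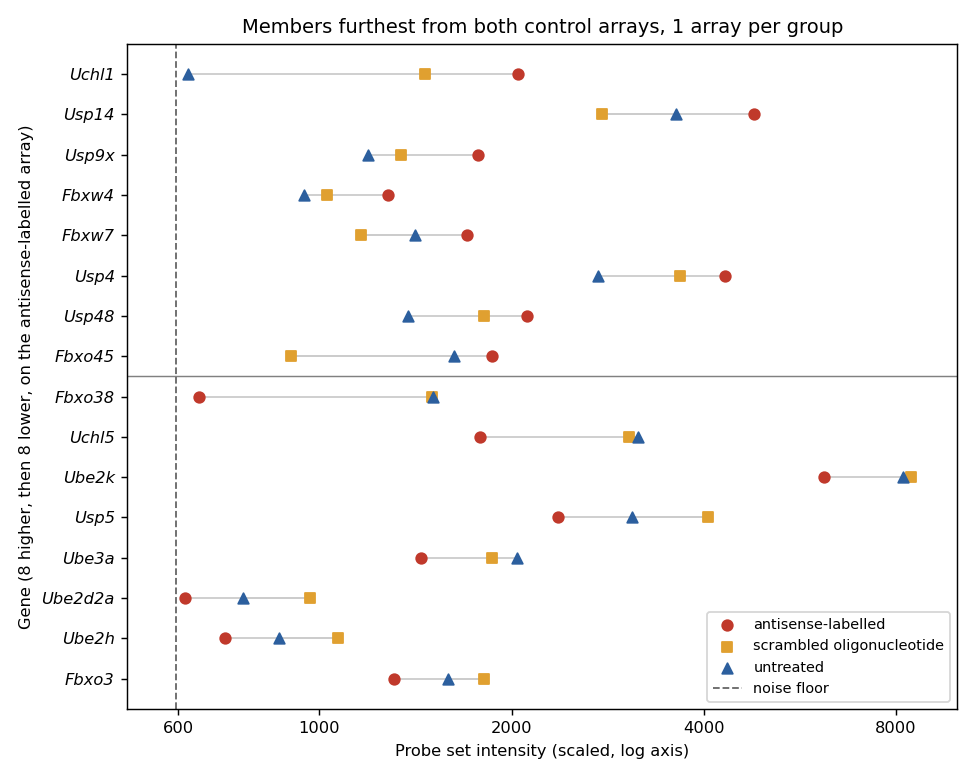
Scaled probe set intensity on a log axis (horizontal) of the 8 members highest and the 8 lowest on the antisense-labelled array against both controls, among members above the floor on the 3 arrays, 1 row a gene. Circles are the antisense-labelled array, squares the scrambled oligonucleotide and triangles untreated cells; the control pairs of Uchl5 and Fbxo38 lie close together, while those of Usp14, Usp5 and Fbxo45 are spread, and the dashed line is the floor of 595.9.

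The USP family had 35 probe sets of 27 genes, and 23 probe sets of 20 genes passed the filter. Among the 23, the antisense-labelled array was the highest for 10 and the lowest for 6, where it was for 37.3% and 32.0% of all probe sets. The medians were 0.10 against untreated and -0.03 against scrambled. Usp5, which takes apart ubiquitin chains that are no longer attached to a protein, read 2369 on the antisense-labelled array, 4064 with the scrambled oligonucleotide and 3087 in untreated cells. The scrambled value was high and the antisense-labelled value low, with differences of -0.38 against untreated and -0.78 against scrambled and a yardstick of 0.64. On the spike-in scale the first turned to 0.25.

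Usp4, a nuclear and cytoplasmic deubiquitinase related to Usp15, read 4328 on the antisense-labelled array, 3670 with the scrambled oligonucleotide and 2734 in untreated cells. It was 0.66 above untreated, at its yardstick of 0.66, and 0.24 above scrambled. Usp15 itself was highest on the scrambled array, at 3134 on the antisense-labelled, 4257 with the scrambled oligonucleotide and 2926 in untreated cells, all within its yardstick. Usp48, a deubiquitinase of the nucleus, followed the order of Usp4 at 2113, 1814 and 1377 on the antisense-labelled, scrambled and untreated arrays. Usp9x, an X-linked enzyme known to stabilise Mcl1, read 1775 on the antisense-labelled array, 1343 with the scrambled oligonucleotide and 1193 in untreated cells, with differences of 0.57 and 0.40 against untreated and scrambled. Those of Usp48 and Usp9x were within their yardsticks of 0.94 and 1.13.

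Usp19, an enzyme anchored in the endoplasmic reticulum, had a probe set that was below the floor on the antisense-labelled array. It read 86 there, against 1331 with the scrambled oligonucleotide and 1042 in untreated cells, and so was at least 2.23-fold lower than scrambled and at least 1.75-fold lower than untreated. Its brighter probe set read 1669 on the antisense-labelled, 2253 with the scrambled oligonucleotide and 1797 in untreated cells, with log2 differences of -0.43 (scrambled) and -0.11 (untreated). The sizes differed. The dimmer probe set passed through the control arrays alone, so the filter set its direction, which is no second reading beside the brighter one. With the floor, its differences of -0.81 against untreated and -1.16 against scrambled were within its yardstick of 1.18. Usp2 passed the filter through the scrambled array alone, at 441, 1173 and 473 on the antisense-labelled, scrambled and untreated arrays. Usp22, of the SAGA chromatin complex, passed through the antisense-labelled array alone, at 875 against 580 with the scrambled oligonucleotide and 442 in untreated cells. The filter set the direction of each.

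Usp7, a deubiquitinase that acts on Mdm2 and p53, had differences of -0.15 (untreated) and -0.12 (scrambled) in its brighter probe set, and of 0.39 and -0.25 in a dimmer one. That dimmer one was below the floor in untreated cells, so the filter set its sign against untreated. Usp1, which acts in the Fanconi anaemia pathway, read 4388 on the antisense-labelled array, 5045 with the scrambled oligonucleotide and 3577 in untreated cells, within its yardstick. Usp10, another p53 deubiquitinase, differed by 0.15 and 0.11 against untreated and scrambled. Usp3, Usp8, Usp34 and Usp47 each differed by less than 0.25 in either comparison in every probe set past the filter.

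F-box proteins had 22 probe sets of 15 genes, of which 13 probe sets of 11 genes passed the filter. Of the 13, 5 were higher and 5 lower than both controls, where 37.3% and 32.0% of all probe sets were. Fbxo8, Fbxo38 and Fbxo45 were each at least 2-fold apart in a comparison. Fbxo38, whose protein is known in T cells to target PD-1, read 647 on the antisense-labelled array, 1500.1 with the scrambled oligonucleotide and 1508 in untreated cells. The controls agreed to 0.01, and the antisense-labelled array was 2.33-fold below untreated and 2.32-fold below scrambled, within a yardstick of 2.46-fold at that level. The differences were -0.59 and -0.70 on the spike-in scale, and -0.76 and -0.75 with an offset in place of the floor, all under 2-fold.

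Fbxo45, which forms a ligase with Mycbp2, read 1862 on the antisense-labelled array, 901 with the scrambled oligonucleotide and 1624 in untreated cells, so the scrambled array stood apart and the antisense-labelled one was 2.07-fold above it. Fbxo8, an F-box protein with a Sec7 domain, read 825 on the antisense-labelled, 634 with the scrambled oligonucleotide and 1326 in untreated cells, and the scrambled array was 2.09-fold below untreated. Both differences lay within the yardstick. Fbxo9 was above the floor with either oligonucleotide, at 1163 on the antisense-labelled and 842 on the scrambled array, against 152 in untreated cells, at least 1.95-fold higher on the antisense-labelled array. It passed through the oligonucleotide arrays alone, so the filter set its direction against untreated. With the floor, the log2 difference of 0.96 was within its yardstick of 1.27.

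Fbxw7 and Fbxw11 are F-box proteins of substrates central to B cell growth, Myc and cyclin E for Fbxw7 and the NF-kB inhibitors for Fbxw11. Fbxw7 read 1706 on the antisense-labelled array, 1160.1 with the scrambled oligonucleotide and 1410.4 in untreated cells, with differences of 0.27 against untreated and 0.56 against scrambled. Fbxw11 differed by 0.08 and -0.28 in its brighter probe set and by -0.06 and -0.44 in the dimmer one, and was highest on the scrambled array in both. Fbxw4 was higher by 0.44 and 0.32, and Fbxw2 lower by differences of -0.23 and -0.49. All were within the yardstick.

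E2 enzymes had 28 probe sets of 20 genes, and 22 probe sets of 17 genes passed, 4 of them above and 10 below both controls, where 37.3% and 32.0% of all probe sets were, the medians being -0.04 against untreated and -0.07 against scrambled. Ube2k, which builds ubiquitin chains on its own, read 6189 on the antisense-labelled array, 8444 with the scrambled oligonucleotide and 8210.4 in untreated cells in its brighter probe set. Its controls lay close together and the antisense-labelled value below them, by -0.41 against untreated and -0.45 against scrambled at a yardstick of 0.41, the first just within it. On the spike-in scale these became 0.22 and 0.06. A dimmer probe set of Ube2k read 1290.3, 1373 and 894 on the antisense-labelled, scrambled and untreated arrays, and so was higher by 0.53 than untreated.

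Ube2n and Ube2s were among the brighter E2 probe sets, where the yardstick was narrow, and differed little. Ube2n, which pairs with a Ube2v partner to build signalling chains, read 13163 on the antisense-labelled, 13565 with the scrambled oligonucleotide and 15078 in untreated cells. Ube2s, which lengthens chains for the anaphase-promoting complex, read 15972 on the antisense-labelled, 18587 with the scrambled oligonucleotide and 16997 in untreated cells. Their differences ran from -0.22 to -0.04, within yardsticks of 0.33. Ube2g1 differed by 0.07 and -0.01 against untreated and scrambled, and Ube2b, a Rad6 homologue of DNA repair, by -0.01 and -0.09. Its paralogue Ube2a was above the floor on the antisense-labelled array at 975 and the untreated at 650 and below it on the scrambled at 434.

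Ube2h, an E2 of the CTLH ligase, read 2218 on the antisense-labelled, 2631 with the scrambled oligonucleotide and 1415 in untreated cells in its brighter probe set. It was higher with either oligonucleotide, by 0.65 on the antisense-labelled array and 0.89 on the scrambled one. The first was within the yardstick of 0.82, and the second is of the kind from which the yardstick was made. Its dimmer probe set read 711 on the antisense-labelled, 1070 with the scrambled oligonucleotide and 865 in untreated cells, a difference of -0.28 for antisense-labelled minus untreated. Ube2e1 was lower with either, at 2132 on the antisense-labelled and 2109 on the scrambled array, against 2967 in untreated cells. Ube2d2a and Ube2d3, broad-range E2 enzymes, were at or below both controls in all 4 of their probe sets, by -0.65 to 0.00. Ube2r2, a Cdc34 relative that serves cullin ligases, differed by 0.05 and -0.34.

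The E1 enzymes had 3 probe sets and all passed. Uba3, the catalytic subunit that activates Nedd8 for cullins, read 1858 on the antisense-labelled, 1423 with the scrambled oligonucleotide and 2145 in untreated cells. Uba7, which activates the interferon-induced modifier Isg15, read 1102 on the antisense-labelled, 872 with the scrambled oligonucleotide and 1318 in untreated cells. Both were lowest on the scrambled array, with differences of 0.39 and 0.34 for antisense-labelled minus scrambled, within the yardstick. Uba1y, the Y-linked copy of the main E1 gene in mice, was near the floor at 476, 598 and 697 on the antisense-labelled, scrambled and untreated arrays. The E2 partners Ube2f for Nedd8 and Ube2l6 for Isg15 were below the floor on the 3 arrays, as was Isg15 itself.

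Of 5 cullins, 4 passed the filter. Cul1, scaffold of the F-box ligases, read 3224 on the antisense-labelled, 3875 with the scrambled oligonucleotide and 3761 in untreated cells, with differences of -0.22 (untreated) and -0.27 (scrambled). Cul2, scaffold of the von Hippel-Lindau ligase, read 2114 on the antisense-labelled and 2106 on the scrambled array, against 1305 in untreated cells, so that the oligonucleotide arrays agreed and untreated cells were lower, within the yardstick of 0.92. Cul3 differed by -0.16 and 0.02, and Cul4a was near the floor, at 602, 437 and 586 on the antisense-labelled, scrambled and untreated arrays. The ligases Ube3a and Ube4b were lower than both controls. Ube3a, a HECT ligase, read 1443 on the antisense-labelled, 1862 with the scrambled oligonucleotide and 2040.0 in untreated cells, with differences of -0.50 against untreated and -0.37 against scrambled that turned to 0.13 and 0.15 on the spike-in scale. Ube4b, which extends chains, differed by -0.11 and -0.13.

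**Figure D3:**
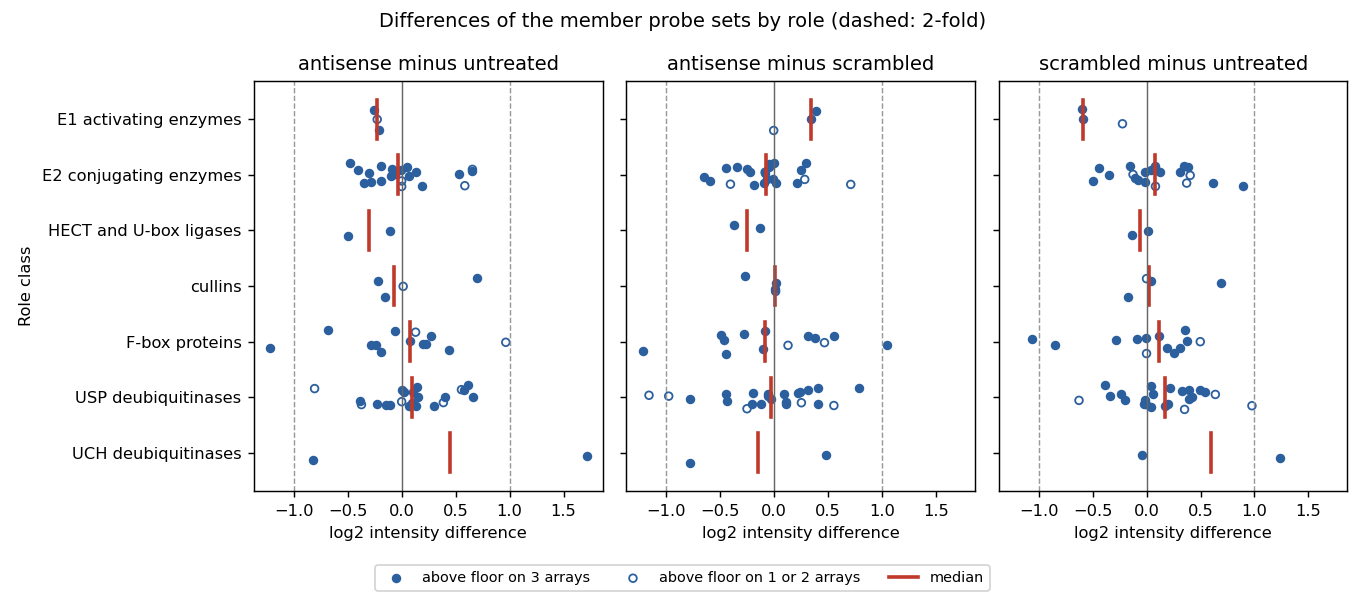
Log2 intensity differences (horizontal) of the 69 member probe sets past the filter, by role class (vertical), for antisense-labelled minus untreated, antisense-labelled minus scrambled, and scrambled minus untreated. Points are probe sets, open where 1 or 2 arrays only were above the floor, red bars are medians and dashed lines 2-fold; the 22 E2 and 23 USP probe sets centre near 0, and the UCH class is Uchl1 and Uchl5 at opposite sides.

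Probe sets of the same gene give a check within an array. Of 19 genes with several member probe sets, 10 had 2 past the filter. Their signs were opposite in 5 of 10 for antisense-labelled minus untreated and in 3 of 10 for antisense-labelled minus scrambled. Some of these signs were set by the filter. The dimmer Fbxo3 probe set passed through the antisense-labelled array alone, and the dimmer Ube2z one through the scrambled array alone. The dimmer Usp7 one was below the floor in untreated cells. The counts are thus not all disagreement between probe sets. Ube2k and Ube2h had the widest gaps against untreated, 0.94 and 0.93, and Usp19 against scrambled, 0.73. Ube2d3, Usp34 and Fbxw11 agreed to within 0.16 in both comparisons. Of the 69 member probe sets past the filter, 11 carry a suffix such as _f, _s, _r or _g, with which the array's maker marks probe sets that depart from its usual design rules.

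**Figure D4:**
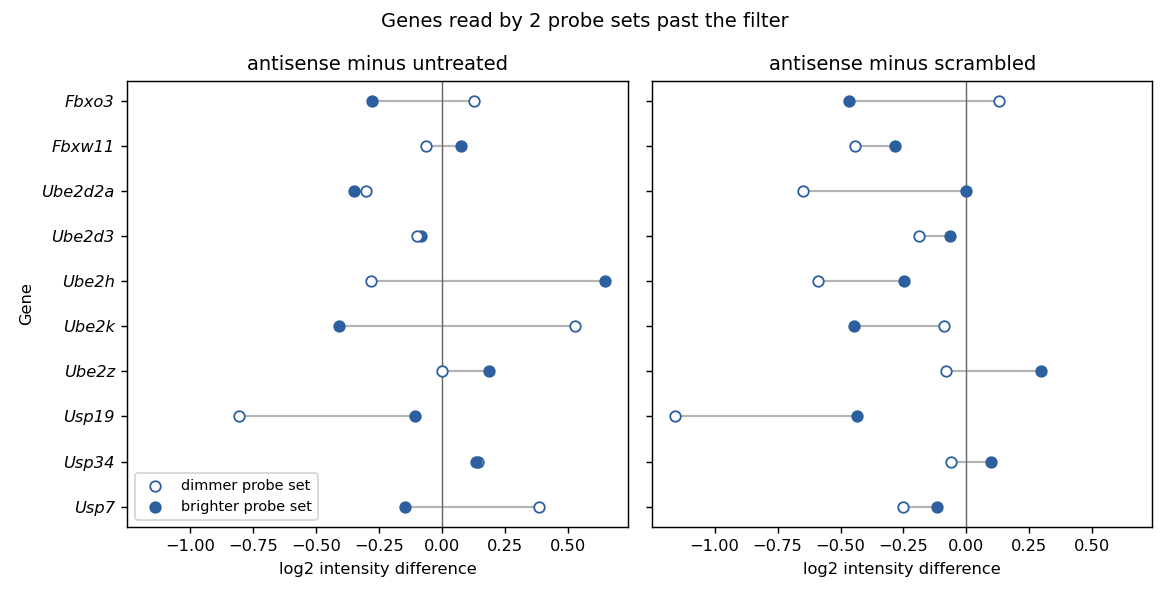
Log2 intensity differences (horizontal) of the 10 genes read by 2 probe sets past the filter (vertical), with the brighter probe set filled and the dimmer one open. The left panel is antisense-labelled minus untreated, where 5 genes have opposite signs, and the right panel antisense-labelled minus scrambled, where 3 do. Among these, signs of the dimmer Fbxo3, Ube2z and Usp7 probe sets were set by the filter.

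Other genes of the pathway were taken from 7 lists, with 125 genes on the array and 100 past the filter, 1 probe set a gene. Among the 100, the antisense-labelled array was the highest for 45 and the lowest for 34, against the 37.3% and 32.0% of all probe sets given above, and the medians were 0.05 against untreated and 0.03 against scrambled. Against untreated 1 was at least 2-fold higher and 1 lower, and against scrambled 3 were higher and 1 lower, near the whole-array shares of 2.64%, 2.20%, 3.20% and 2.82%. Mdm4, a partner of Mdm2 that restrains p53, read 5743 on the antisense-labelled, 2792 with the scrambled oligonucleotide and 2623 in untreated cells, or 1.13 above untreated and 1.04 above scrambled. Traf2 and Birc2, RING ligases of tumour necrosis factor receptor signalling, were higher too, Traf2 at 4097, 1456 and 2189 and Birc2 at 4676, 2928 and 2945 on the antisense-labelled, scrambled and untreated arrays. Arih2, a partner of cullin ligases, was higher within its yardstick.

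The lower genes of these lists included Vcp, Cdc20 and Cdc23. Vcp, the segregase that pulls ubiquitinated proteins out of complexes, read 6712 on the antisense-labelled, 9613 with the scrambled oligonucleotide and 9695 in untreated cells, differences of -0.52 and -0.53. Cdc20 and Cdc23, of the anaphase-promoting complex for which Ube2s works, differed by -0.70 and -0.88 against untreated and by -0.74 and -0.52 against scrambled. Their yardsticks were 0.35 and 0.87. For Cdc23, read by a family probe set, the difference from scrambled was within it and that from untreated just past it. The controls of Cdc23 were apart by -0.36, scrambled minus untreated. Ubxn4, a Vcp partner, was lower within its yardstick. Faf1 read 1931 on the antisense-labelled, 10360 with the scrambled oligonucleotide and 3369 in untreated cells in a family probe set, and the scrambled array stood apart from the others by the wider gap. Of 14 partners of cullin and F-box ligases past the filter 5 were higher and 5 lower than both controls. Of 9 genes listed with other deubiquitinases and modifier proteases, Psmd7 among them, 2 were higher and 5 lower. Of 20 genes listed with shuttles and ubiquitin binding, Sae1 among them, 6 were higher and 11 lower. Of 31 RING and HECT ligases 16 were higher and 8 lower. Of 11 genes listed with the anaphase-promoting complex, Bub3 among them, 4 were higher and 3 lower. Over all probe sets past the filter the shares were 37.3% higher and 32.0% lower.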

How the data were processed

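RNA of 3 samples was read on 1 array each, so no test or p-value is given. The deposited intensity values are on a linear scale, and between 24.8% and 27.9% on an array are at or below 0. Their trimmed mean is 1500.0 on each array, so the authors had scaled the arrays; their software was not given in the sources used. The values were scaled again to a common mean of the 12588 non-control probe sets, trimmed by 2% at either end, floored at 2 robust standard deviations of the values below 0 (595.9), and logged (Python 3.11.15, pandas 2.3.3). Probe sets with a value above the floor were kept. Fold values against the floor are lower bounds. All 97 gene identifiers matched RefSeq. Members, lists and settings were chosen with earlier results of these data known. Genes named are the 8 highest and 8 lowest on the antisense-labelled array against both controls by the smaller difference, the 4 and 4 for both oligonucleotides against untreated and for the scrambled array against both others, among members above the floor on the 3 arrays; every member 2-fold apart; members with several probe sets; members shown for their role; and 5 and 5 pathway genes. The scaling and counting were tested on simulated data. Precision is limited by the number of arrays. Alternatives were another floor, offset, filter, scaling, probe set choice and threshold.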

Additional observations from a re-analysis of the deposited data

How the results depend on the processing

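Counts of members 2-fold apart are given for antisense-labelled minus untreated, antisense-labelled minus scrambled and scrambled minus untreated, in this order, and are 2, 3 and 2 of 69 as reported. A floor of 178.1, the 40th percentile, gave 6, 12 and 9 of 87, and a floor of 298.0 gave 4, 8 and 6 of 80. A lower floor also lets more members past the filter. All probe sets had 15.2%, 17.6% and 12.9% and then 9.80%, 11.9% and 7.84% 2-fold apart. Of the 69 alone, 4, 8 and 6 were 2-fold apart with either floor. At a threshold of 1.5-fold the counts were 11, 10 and 11 of 69, against 17.6%, 20.1% and 12.9% of all probe sets. With an offset in place of the floor they were 3, 1 and 0 of 69, against 4.59%, 5.57% and 3.05%. Scaling to the spike-in controls gave 12 and 5 for the first pair, against 16.5% and 13.4% of all probe sets. It put 60 members higher and 3 lower than both controls. The same count over all probe sets is not given, so these are not read as a trait of the members. The medians of all probe sets became 0.64, 0.51 and 0.13, and those of the members 0.57, 0.45 and 0.16. The medians moved by less than 0.1, and the numbers higher and lower than both controls by less than 1.5 times, under the 8 other alternatives run for them, 1 of which, a single probe set a gene, was chosen after seeing the data. Of 699 differences of named probe sets under the alternatives, 676 kept their sign. Most of these could not turn, since a change of floor, offset, filter or probe set choice leaves the order of the arrays as it is. The 676 is thus no measure of stability. Of the signs that turned, 2 came from quantile normalization, which gives the arrays the same distribution of values, and 21 from the spike-in scaling. Under that scaling Ube2k, Ube3a, the brighter Fbxo3 and Ube2d2a probe sets and the dimmer Fbxw11 one turned sign against both controls and Usp5 against untreated, while Uchl5 and Fbxo38 stayed below both, Fbxo38 by under 2-fold. The 40th percentile floor took the dimmer Usp19 probe set to -2.55 and -2.90. No paired analysis was possible because each group has 1 array. For 27 of the 69 members past the filter the yardstick is 2-fold or more, so that a 2-fold difference is not told from the difference between the controls.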

Other observations

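Of 12 genes for ubiquitin and related small proteins on the array, Nedd8, Sumo3, Ufm1, Urm1, Ubl5 and Gabarap were above the floor on the 3 arrays. Each read higher on the antisense-labelled array than on both controls, as did 37.3% of all probe sets. Of these, Nedd8 is activated by a member enzyme, Uba3. Urm1, a modifier that also carries sulfur to transfer RNA, read 3839 on the antisense-labelled, 1833 with the scrambled oligonucleotide and 2615 in untreated cells, with differences of 0.55 against untreated and 1.07 against scrambled and a yardstick of 0.69. Ufm1, a modifier that acts on ribosomes at the endoplasmic reticulum, read 3377 on the antisense-labelled, 1979 with the scrambled oligonucleotide and 2381 in untreated cells, differing by 0.50 and 0.77 with a yardstick of 0.68. Nedd8, which activates cullins, differed by 0.16 and 0.06, Sumo3 by 0.18 and 0.20, and Gabarap, an autophagy modifier, by 0.04 and 0.07, each within the yardstick. For Ubl5 a family probe set gave 0.31 and 0.20. Atg12 passed the filter through the antisense-labelled array alone, so its direction was set by the filter.

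The COP9 signalosome, which takes Nedd8 off cullins, had 9 of 9 genes past the filter, with 5 higher and 2 lower than both controls, where 37.3% and 32.0% of all probe sets were. Gps1, its first subunit, read 7813 on the antisense-labelled, 6262 with the scrambled oligonucleotide and 6138 in untreated cells, differences of 0.32 and 0.35 against scrambled and untreated, within a yardstick of 0.42. Cops5, the subunit that cuts Nedd8, differed by -0.02 against untreated and 0.20 against scrambled. Cops3 was lower than untreated on both oligonucleotide arrays, at 3616 on the antisense-labelled and 3678 on the scrambled array, against 4965 in untreated cells. Under the spike-in scaling all these differences would be raised with the rest of the array.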
